A study of Mus musculus with 4 samples.

Results

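Pou5f1 (also called Oct4), Nanog, Sox2, Klf4 and Myc encode transcription factors that hold mouse embryonic stem cells in the pluripotent state or, in the case of Pou5f1, Sox2, Klf4 and Myc, return somatic cells to it when expressed together. Differential peaks of N6-methyladenosine (m6A) on these 5 genes were taken from 1 deposited list, by the rule that any block of a peak lay in a window drawn around the gene on build mm9 and that the peak was listed on the gene's strand. Of the 4206 peaks in the list, 7 met the rule, or 0.166% of the list. They fell on 4 of the 5 genes: 2 on Nanog, 2 on Sox2, 2 on Myc and 1 on Klf4. Pou5f1 was unlisted.

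The cells were of CCE, a mouse embryonic stem cell line kept without feeders in serum medium with leukemia inhibitory factor. One arm was infected with a control short hairpin RNA and the other with a hairpin against Zfp217, a zinc finger protein. Both arms were put under puromycin at 1 microgram per mL from 4 days after infection and kept there for 5 days. RNA in pieces of about 100 nt was then pulled down with an m6A antibody. The design therefore has 4 groups, which are control input, control m6A pulldown, Zfp217 hairpin input and Zfp217 hairpin m6A pulldown, with 1 library in each. Both pulldown titles mention Zfp217, but the antibody given for them is against m6A, so they were read as m6A pulldowns. Nothing in the labels says how many hairpins or clones were used, and the extent of the knockdown was not analysed here.

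m6A is written on nascent messenger RNA by a complex built around METTL3 and METTL14, mostly at an A in a short consensus of which GGACT is a common form. It is typically found in long internal exons, around the stop codon and in the 3′ untranslated region. Reader proteins bound to the mark can speed the decay of the transcript, and in embryonic stem cells the mark is known for its part in the turnover of pluripotency transcripts.

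The arms differ in the hairpin against Zfp217, but the list does not name the groups it compares. For the 5 genes the list shows only where a peak was called as differential. Its columns carry no direction, fold or p-value, and it ties no value to a library or an arm, so no value per sample can be given for any of the 5 genes. A listed peak below is a place on a gene, not a gain or a loss of methylation. The list also holds no expression level, so the labelled cell type could not be checked against its markers.

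Pou5f1 encodes the POU-domain factor OCT4, a core component of the pluripotency circuit. Its window, chromosome 17 from 35642900 to 35647800 on the plus strand, held no peak on either strand. The nearest listed peaks lay 378253 bp upstream and 336706 bp downstream of the window, both on the plus strand. Absence from a list of differential peaks does not say that a transcript carried no m6A, because the threshold of the list and the libraries behind it are unknown here.

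Sox2 encodes the HMG-box partner of OCT4 on DNA. Its 2 peaks summed to 1050 nt, or 40.4% of its 2601-bp window. That was the greatest summed block length of the 5 genes, but by genomic span, which takes in the gap of a split peak, Nanog was ahead with 1359 bp. The first peak (chromosome 3, plus strand) covered 270 nt from 34549556 to 34549825 and began 656 bp inside the 5′ edge of the window. The second covered 780 nt from 34550184 to 34550963 and ended 537 bp before the 3′ edge. An unlisted stretch of 358 bp separated them. No other peak of that strand was listed for 2129354 bp upstream or 2990360 bp downstream of the window. This was not particular to Sox2, since the nearest same-strand peak outside the Nanog, Klf4 and Myc windows was at least 1661365 bp away. In the GENCODE vM21 annotation, which is built on GRCm38, the Sox2 transcript has 1 exon, with a coding sequence of 960 nt and a 3′ untranslated region of 1086 nt. The same annotation places Sox2 inside Sox2ot, a long noncoding gene on the same strand, so the listed strand does not tell RNA of these genes apart.

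Nanog encodes a homeodomain factor that sustains self-renewal. Its 2 peaks summed to 534 nt, or 7.31% of its 7301-bp window, which spans 122657500 to 122664800 of chromosome 6 and is read on the plus strand. The first, of 238 nt, was the only one of the 7 that was split into blocks (14.3%, against 9.62% of the other 4199 peaks). Its blocks ran from 122661659 to 122661821 and from 122662647 to 122662721, with 163 and 75 nt, and the gap between them was 825 bp. The second covered 296 nt from 122663206 to 122663501, 484 bp farther downstream on the genome, and ended 1299 bp before the 3′ edge of the window. On the genome, both peaks lay in the downstream part of the window, with their midpoints at 64.2% and 80.2% of its length. The midpoint of the split peak fell in its gap. These positions count introns and are not positions along the transcript.

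The gap in the split Nanog peak had the length of a Nanog intron. The 3 introns of the longest coding Nanog transcript in GENCODE vM21 (Nanog-201) are 3604, 825 and 426 bp long, and the second equals the gap to the base. Of 187321 introns in 1 such transcript per protein-coding gene, 66 had that length, or 0.0352%. The exons on its sides are 266 and 87 nt long and so have room for blocks of 163 and 75 nt. Only lengths were compared, and no position was carried between mm9 and GRCm38. If the gap is that intron, the peak takes in the last 163 nt of the exon before it and the first 75 nt of the exon after it. Those stretches of the GENCODE transcript, positions 470 to 632 and 633 to 707 counted from its 5′ end, lie inside the coding sequence, in the part that encodes the homeodomain. Nanog-201 is 2211 nt long, so on that match the split peak lies in the upstream part of the transcript. The 426-bp intron would then lie within the 484 bp between both Nanog peaks, which would be much closer on the transcript than on the genome. The place of the second Nanog peak on the transcript was not worked out. The stretches of the split peak are shown because it is the only one of the 7 with a gap to compare with an intron. They run 5′ to 3′ on the sense strand, with each GGAC in capitals.
Nanog exon before the 825-bp intron: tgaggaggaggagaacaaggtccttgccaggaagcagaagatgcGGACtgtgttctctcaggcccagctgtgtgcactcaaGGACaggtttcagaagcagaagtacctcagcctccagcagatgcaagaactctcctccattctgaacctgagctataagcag
Nanog exon after the 825-bp intron: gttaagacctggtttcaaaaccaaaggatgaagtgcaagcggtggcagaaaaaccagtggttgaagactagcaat
GGAC occurred 2 times in the stretch before the junction, 1 of them as the longer GGACT, and 0 times in the stretch after it. A motif match is a sequence of letters and not a methylated site. GENCODE also lists the pseudogenes Nanog-ps1 and Nanog-ps2, and nothing at hand says how reads shared with such copies were placed.

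Klf4 encodes a zinc finger factor that acts downstream of leukemia inhibitory factor. It carried a single peak of 239 nt (chromosome 4, minus strand, 55543183 to 55543421), which made up 4.34% of its 5501-bp window. The peak began 1979 bp from the 5′ edge and ended 3283 bp from the 3′ edge, with its midpoint at 38.1% of the window. Among the 4 listed genes, Klf4 thus had the fewest peaks and the least listed length.

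Myc encodes a basic helix-loop-helix factor that drives growth and proliferation. Its 2 peaks summed to 900 nt, or 17.3% of a 5201-bp window on the plus strand of chromosome 15. The first covered 121 nt from 61819443 to 61819563, near the middle of the window, and was the shortest of the 7. The second covered 779 nt from 61820929 to 61821707 and ended 293 bp before the 3′ edge, the closest of the 7 to the end of its window. They were 1365 bp apart on the genome, the widest spacing of the 3 pairs by that measure. GENCODE vM21 gives the Myc transcript introns of 1555 and 1067 bp and the Sox2 transcript none. Introns were not taken out, so spacing on the RNA was not ranked. Sox2 and Myc thus each carried 1 shorter peak and 1 long peak farther downstream. Lengths in the list fall on steps, with 86% of its peaks and 5 of these 7 within 1 nt of a multiple of 30 nt, so nothing was read from the likeness of the long peaks, 780 and 779 nt.

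**Figure D1:**
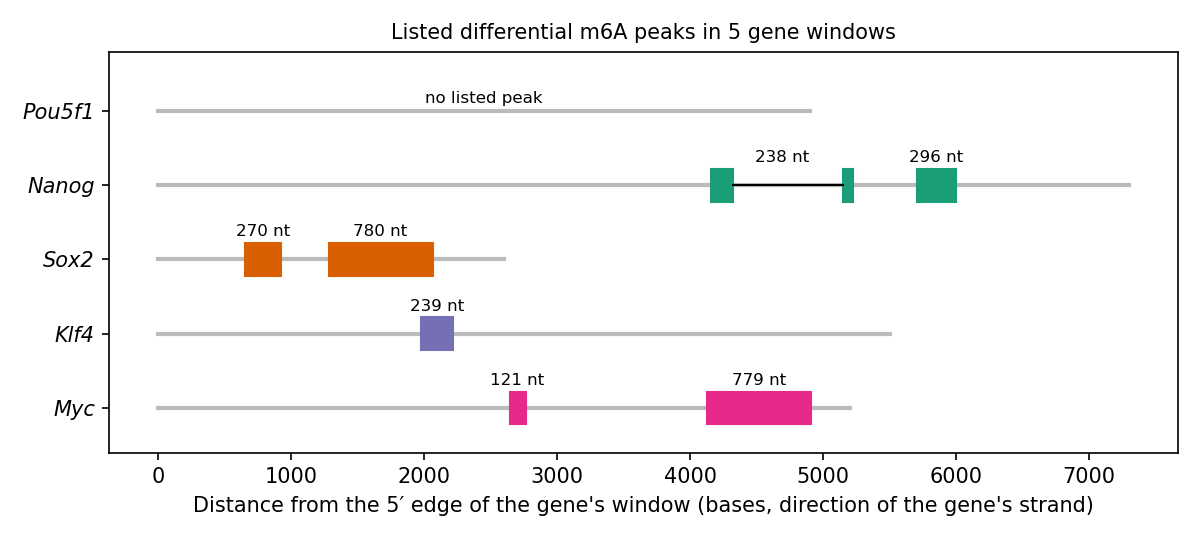
Listed peaks (coloured boxes, labelled with summed block length in nt) in the window of each gene (grey line), against distance in bases from the 5′ edge of the window in the direction of the gene's strand; the black line joins both blocks of the split Nanog peak. Pou5f1 has no box, Klf4 has 1, and the downstream box of Sox2 (780 nt) and of Myc (779 nt) is the longer one.

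The windows need not end where the genes end, and no annotation of mm9 was used here. They also take in introns, of which the GENCODE transcript of Sox2 has none, so shares of a window were not compared between genes. Positions in the window therefore say on which side of the genomic window a peak lay, not where along the transcript. Nor do they say whether it was in the coding sequence, at the stop codon or in an untranslated region. No window held a peak on the opposite strand. The kit used for the libraries keeps no record of strand, and it is unknown here how strands were assigned to peaks.

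By length, 2 of the 7 peaks lay above the list's upper quartile and 5 below it. Their median was 270 nt against 210 nt for the list, whose quartiles were 120 and 420 nt. The long peaks of Sox2 and Myc were each 3.71 times the list median. Only 296 peaks of the list were longer than the Sox2 peak and 302 were longer than the Myc peak. The other 5 ran from 121 nt, a length that 29.9% of the list did not exceed, to 296 nt, which 61.4% did not exceed. At or above the list's upper quartile lay 2 of the 7, or 28.6%, against 25.5% of the other 4199. The same 2 were the only ones over 700 nt, again 28.6%, against 9.26% of the other 4199. The quartiles of the 7 were 238.5 and 537.5 nt. The comparison thus depends on the cut, and whether the 7 were long for the list as a set was not tested. A longer peak is not a stronger or more changed one.

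**Figure D2:**
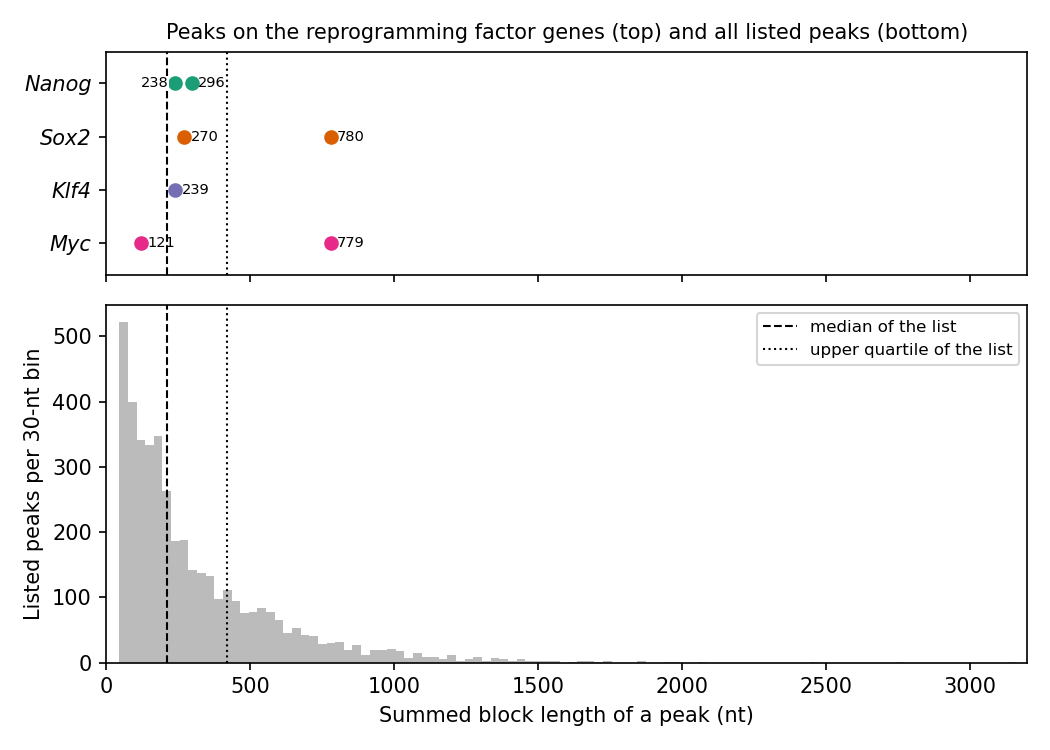
Top, summed block length in nt of each of the 7 peaks (points, labelled with the length) by gene; bottom, number of peaks of the whole list per 30-nt bin of length; dashed and dotted lines mark the list's median (210 nt) and upper quartile (420 nt). The peaks of 780 nt on Sox2 and 779 nt on Myc lie beyond the upper quartile, and the other 5 lie between 121 and 296 nt.

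On each of the 3 genes with 2 peaks, the downstream peak was the longer. The downstream peak was 1.24 times as long as the upstream one on Nanog, 2.89 times on Sox2 and 6.44 times on Myc. This order was noticed in these pairs, and 3 pairs give only a description; on Nanog the difference was 58 nt, close to 2 of the 30-nt steps. Among 503 other pairs, which were chains of exactly 2 peaks of one strand no more than 1500 bp apart, the downstream peak was longer in 221, or 43.9%, shorter in 264 and equal in 18. The median ratio of downstream to upstream length was 0.876, with quartiles of 0.397 and 2.31. The ratio on Nanog therefore lay within the middle range of other pairs, and those on Sox2 and Myc lay above its upper quartile. A ratio of 6 or more, a cut chosen after the Myc ratio was seen, was found in 8.95% of the other pairs. That both peaks of such a pair belong to one gene is known from the windows for Nanog, Sox2 and Myc and was not checked for the others.

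**Figure D3:**
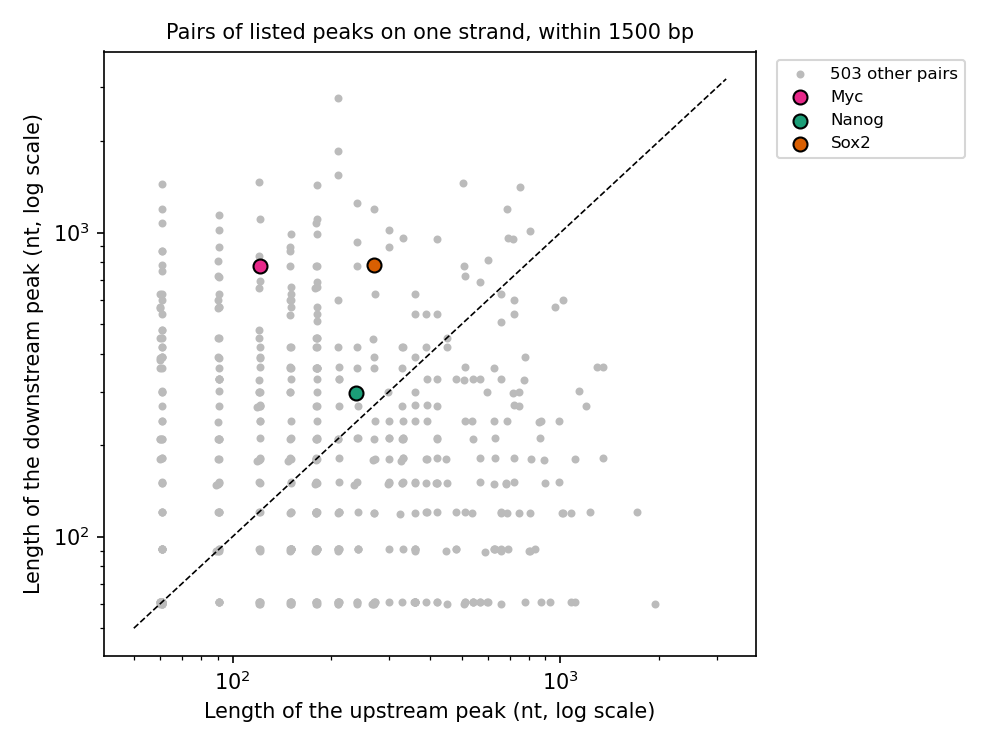
Length of the downstream against the upstream peak (nt, both axes logarithmic) for each pair of listed peaks of one strand within 1500 bp; grey points are 503 other pairs, coloured points are Nanog, Sox2 and Myc, and the dashed line marks equal lengths. All 3 coloured points lie above the line, with Nanog (238 and 296 nt) close to it, while 43.9% of the grey points lie above it.

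What the transcripts of the 5 genes offer to the m6A writer was described from their reference sequences, on the sense strand of the longest protein-coding transcript of each gene in GENCODE vM21. The letters searched were GGAC and its longer form GGACT, so that each GGACT also counts as a GGAC. GGAC was similarly dense in all 5, from 4.86 per 1000 nt in Sox2 to 5.14 in Pou5f1, inside the quartiles of 2.73 and 5.32 over 21899 protein-coding genes, whose median was 3.94. By count there were 7 in Pou5f1, 11 in Nanog, 10 in Sox2, 15 in Klf4 and 12 in Myc. At least 1 GGAC was present in the transcripts of 98.3% of genes, so its presence sets none of the 5 apart.

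GGACT differed more among them. Pou5f1 held 1 in 1362 nt, in its coding sequence, or 0.734 per 1000 nt. That was below the median of 1.01 over all protein-coding genes, and 34.3% of genes were no denser. The 4 listed genes were above the median. Sox2 held 3, or 1.46 per 1000 nt, all in the 3′ untranslated region. Klf4 held 5, or 1.65, with 2 in the coding sequence and 1 in the 3′ untranslated region. Nanog held 4, or 1.81, with 2 in each of these regions. Myc held 6, or 2.57, with 4 in the coding sequence, and 95% of genes were no denser. The place of Pou5f1 as the least dense of the 5 rests on a single occurrence, since 1 more GGACT would give it 1.47 per 1000 nt, above Sox2. No difference between the unlisted gene and the listed ones was read from this, and which of these letters lie inside the listed peaks was not analysed here except for the Nanog stretches above.

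**Figure D4:**
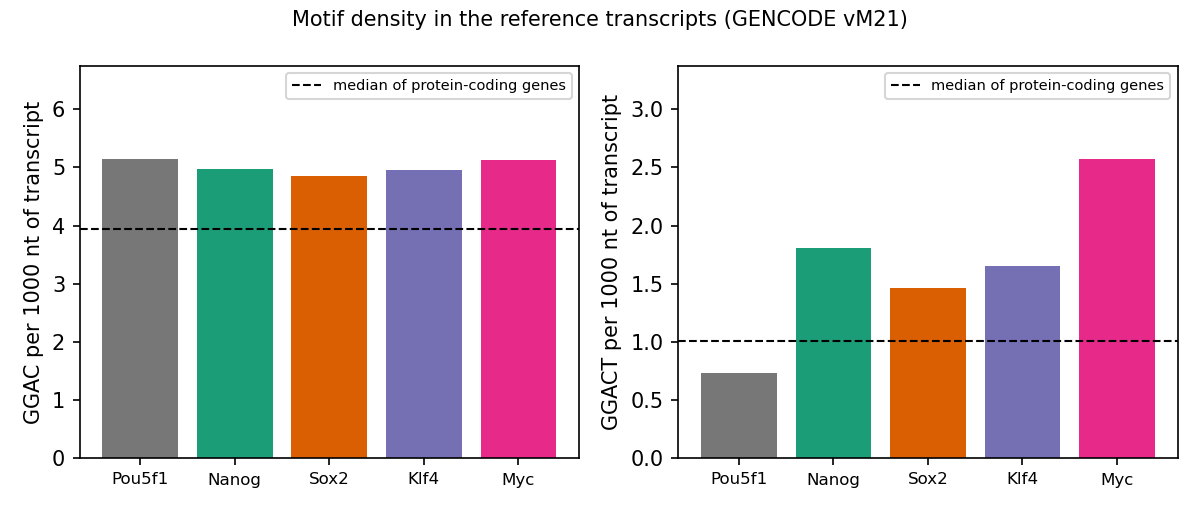
Occurrences per 1000 nt of GGAC (left) and GGACT (right) on the sense strand of the longest protein-coding GENCODE vM21 transcript of each gene (bars, axis from 0), with the median over protein-coding genes as a dashed line. GGAC is close to 5 in every bar, while GGACT is 0.734 in Pou5f1 and between 1.46 and 2.57 in the other 4.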

How the data were processed

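The list holds 1 row per peak in BED format. Build mm9 and the tools Bowtie2, MACS 1.4 and CASAVA 1.4 are named in the submitters' processing notes, without their roles; which libraries were compared, and at what threshold, is unknown here. The score the authors deposited is 900 in every row and was not used. Counts and depth are unknown, so no interval is given, and with 1 library per group no test was made.

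Peak length is the sum of block sizes, and positions count from 1. Rows were matched to windows, paired and drawn with Python 3.11.15, numpy 2.4.6 and matplotlib 3.10.9, after tests on simulated rows. Transcript and intron lengths and motifs came from GENCODE vM21 (GRCm38), without positions. The 5 genes named, their windows and the alternatives were chosen with earlier results of these data known; pairs, motifs and the intron comparison were chosen after the rows were seen. Other genes of the pluripotency network and of the m6A machinery were not analysed here, since the rows carry no gene names and no mm9 annotation was used.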

Additional observations from a re-analysis of the deposited data

How the results depend on the processing

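The count of 7 peaks on 4 genes was the same on either strand, with windows widened by 1000 bp at each end and with whole spans required inside the window. It was also the same without the second sorted run of 88 peaks. Merging peaks within 100 bp, run for the count of peaks, left 7. Neither of these last settings could have changed the count, since all 7 peaks lie in the first run and the closest pair is 358 bp apart. Widening could add none either, since the nearest listed peak beyond any window lay 15031 bp away. All 7 peaks lay at least 293 bp inside their windows, so requiring whole spans or counting only inside bases could change nothing. Counting only bases inside the window changed no gene's length. Measured as genomic span, the length on Nanog was 1359 bp in place of 534 nt, since the span takes in the gap of the split peak, which puts Nanog ahead of Sox2 (1050 by either measure). The share of other pairs with the longer peak downstream was 43.8% within 1000 bp and 44.9% within 3000 bp, alternatives chosen after seeing the data. No paired analysis was possible because no row of the list is tied to a library, and there was 1 library per group. The depth behind the peaks, and so its limits, are unknown here.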
